A study of Arabidopsis thaliana with 4 samples.

Results

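Described here are 8 Arabidopsis thaliana defence genes. Their transcripts rose after wounding of other leaves in opr3 plants, and rose less or fell in wild type (wt). They were AT2G43620 and CHI (AT2G43570) of the chitinase family, the legume lectin gene AT5G03350, the lipid-transfer family gene AT5G55450, AT1G72060, annotated as a protease inhibitor, the C2-domain gene AT4G00700, the cytochrome P450 gene CYP71B23 (AT3G26210) and AT1G13470, a gene of unknown function. Each was taken by its gene name and is measured by 1 probe set, so the set holds 8 of the 22746 plant probe sets on the array and 8 of the 13513 with a single named gene. The names had been picked from the wounding responses on these same arrays. The values below therefore describe the genes and test nothing about them.

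Wounded opr3, wounded wt, control opr3 and control wt plants were each measured on 1 Affymetrix ATH1 array, an oligonucleotide array that reads transcripts near their 3′ end. Plants of every group had an age of 6 weeks and were kept at 21 °C in a cycle of 10 h light and 14 h dark. In the wounded groups some rosette leaves were crushed with tweezers, and RNA came from uncrushed leaves 2 h later. The protocol attached to the wounded opr3 sample names wild-type plants, so its line rests on its title, and the opr3 allele and the accession of both lines are not given in the sources used here. Each group has 1 array, so no difference below has a replicate check and no p-value or standard error could be computed. How many plants went into each array was not stated. In leaf RNA, fewer cells that express a gene and less RNA per cell cannot be told apart.

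OPR3 encodes the reductase that takes the oxylipin OPDA towards jasmonic acid, the hormone that drives much of the wound response. Plants also defend themselves through salicylic acid, which acts against microbes that feed on living tissue and switches on secreted proteins such as chitinases, and the jasmonate and salicylate branches are known to restrain each other. Chitinases cut the chitin of fungal walls. Lectins bind sugars, lipid-transfer proteins carry lipids outside the cell, protease inhibitors block digestive enzymes, and cytochromes P450 modify small molecules. AT5G03350 is known as a salicylate-induced lectin-like gene.

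All values are log2 expression values made by the authors with RMA, a method that corrects background, equalises the arrays and sums the probes of a probe set. A log2 difference of 1 is a 2-fold difference, the limit used here. Probe sets entered where at least 1 array had a log2 value of 4.73, which is the 40th percentile of the table. In all 14612 did so, among them those of all 8 genes. Of the 32 values of the 8 genes, a single one lay under that level, AT4G00700 in control opr3 (4.56), so folds against it are approximate. Leaf genes RCA, LHCB4.1 and PRK, the 3 of 8 listed mesophyll markers named on the array, lay between 12.21 and 13.57 on every array, while the root genes EXPA7 and AT5G66390 stayed under the filter level on all 4. None of the listed guard cell, trichome, phloem, xylem, flower or seed markers had a named probe set. The wt wounded array stood apart in its control probe sets. Probe sets at the 5′ end of its Bacillus control transcripts lay -2.00 (log2, mean of 8 pairs) from those at the 3′ end, against -1.29 for wounded opr3, -1.27 for control opr3 and -1.16 for control wt. For its Arabidopsis control transcripts this value was -1.18 over 6 pairs, against -0.88, -0.92 and -0.86 on those arrays. The wt responses, the comparison of the lines after wounding, and the differences of responses with their ranks all use the wt wounded array. What part this has in them was not tested.

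The chitinase genes were the only ones of the 8 that were higher after wounding in both lines. AT2G43620 had a log2 value of 9.37 in wounded opr3 against 5.10 in control opr3, and 7.71 in wounded wt against 6.52 in control wt. Its transcript was thus 19.3-fold higher after wounding in opr3 and 2.29-fold higher in wt. CHI stood at 7.99 in wounded opr3 against 5.22 in control opr3, and at 7.54 in wounded wt against 6.73 in control wt, which is 6.79-fold in opr3 and 1.76-fold, under the limit, in wt. In both genes control opr3 was the lowest array, with control wt next, and wounded opr3 the highest. After wounding CHI differed little between the lines, 1.36-fold higher in opr3, while AT2G43620 was 3.16-fold higher. For CHI, 77.2% of the log2 difference between the responses was the gap between the control arrays, the highest share of the 8 genes.

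Lectin, C2-domain and unknown-function genes were higher after wounding in opr3 and changed by less than 2-fold in wt. AT5G03350 had 8.38 in wounded opr3 against 5.85 in control opr3, and 7.15 in wounded wt against 7.38 in control wt. AT1G13470, which belongs to a family known by its DUF1262 domain, followed it closely, with 7.98 in wounded opr3 against 5.67 in control opr3, and 6.70 in wounded wt against 7.12 in control wt. After subtraction of each gene's own mean, these profiles lay 0.211 log2 units apart (Euclidean distance over the 4 arrays), the second smallest distance among the gene pairs. AT4G00700, of a family of membrane proteins with several C2 domains (MCTP), had 7.42 in wounded opr3 against 4.56 in control opr3, and 5.64 in wounded wt against 5.78 in control wt. Wounded opr3 was the highest and control opr3 the lowest array for all 3 genes, with the wt arrays close together between them. The differences in opr3 came to 5.76-fold for AT5G03350, 4.97-fold for AT1G13470 and about 7.24-fold for AT4G00700. In wt the same genes differed by log2 -0.23, -0.42 and -0.14.

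The lipid-transfer, P450 and protease inhibitor genes passed the limit in opposite directions in the lines: they were at least 2-fold higher after wounding in opr3 and at least 2-fold lower in wt. AT5G55450 had 10.32 in wounded opr3 against 7.85 in control opr3, and 8.24 in wounded wt against 9.34 in control wt, so it was 5.53-fold higher in opr3 and 2.13-fold lower in wt. CYP71B23 had 8.50 in wounded opr3 against 7.26 in control opr3, and 6.98 in wounded wt against 8.02 in control wt. AT1G72060 had 8.59 in wounded opr3 against 7.49 in control opr3, and 6.98 in wounded wt against 8.10 in control wt. CYP71B23 and AT1G72060 had almost the same profile, 0.168 log2 units apart, the smallest distance between any pair of the 8. They were also the only genes of the set with their lowest value in wounded wt rather than in control opr3. Their responses in opr3 were the smallest of the set, 2.35-fold and 2.15-fold. In wt they were 2.05-fold and 2.17-fold lower. These decreases rest on the wt wounded array, whose control transcripts had the lowest 5′ minus 3′ values, and the part of that in them was not tested. With cyclic loess normalization the wt response of CYP71B23 was -0.96 in place of -1.03, inside the limit.

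**Figure D1:**
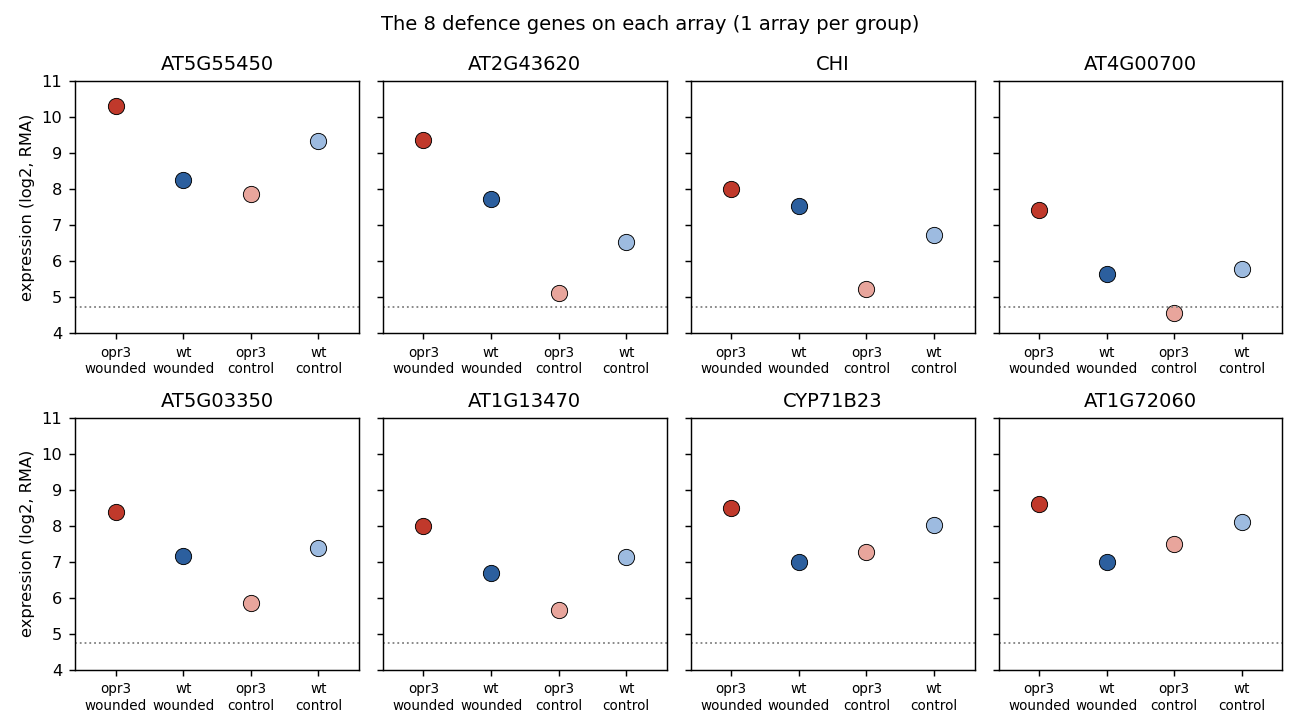
Log2 expression of each of the 8 genes (one panel per gene) on the 4 arrays, from left to right wounded opr3, wounded wt, control opr3 and control wt; each point is 1 array and the dotted line is the filter level of 4.73. Wounded opr3 is the highest point in every panel, and control opr3 is the lowest in all but CYP71B23 and AT1G72060.

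Over the set, all 8 genes were at least 2-fold higher after wounding in opr3, where 4.85% of all probe sets were, with log2 differences from 1.10 to 4.27 and a median of 2.5 (-0.03 over all probe sets). In wt, 1 gene, AT2G43620, was at least 2-fold higher (3.94% of all probe sets) and 3 were lower (1.79%), with a median of -0.33 (-0.05 over all). The name of the set, as genes induced by wounding, describes the opr3 values, which were among those that picked the genes. In wt 6 of the 8 had values below their control (56.2% of all probe sets), by log2 -0.14 to -1.12. AT2G43620 passed the limit upward in both lines, as did 2.4% of all probe sets. Since these contrasts chose the genes, nothing is read from the counts, and the comparisons given below share the same 4 arrays. The difference of the responses, opr3 minus wt, was at least 2-fold in all 8 (2.07% of all probe sets) and ran from 1.95 to 3.56. It keeps the sign, so a larger or smaller response below means a higher or lower signed value and not a stronger or weaker change.

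**Figure D2:**
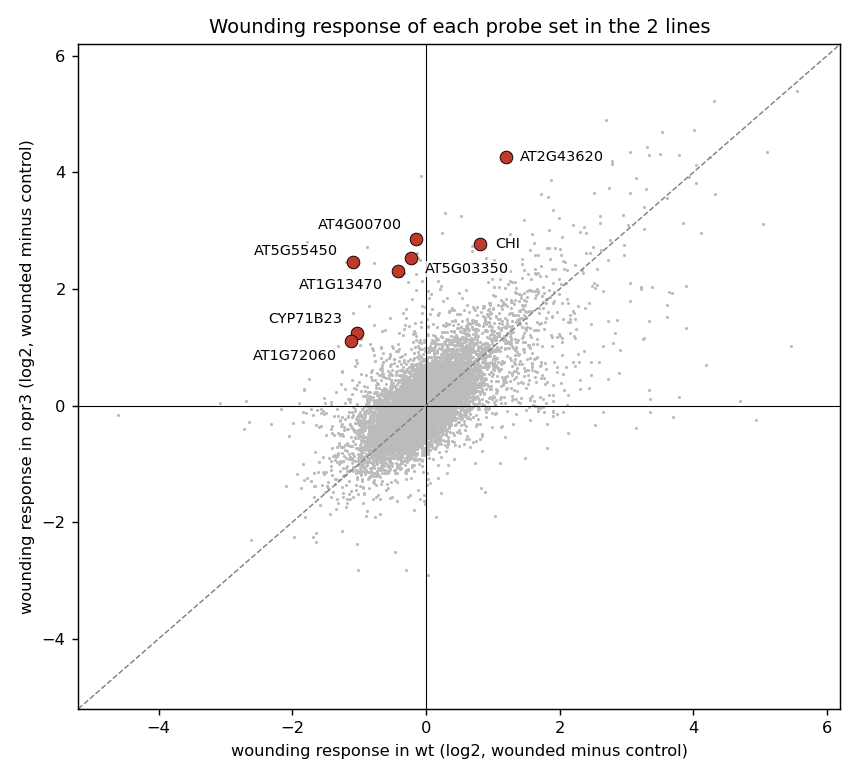
Wounding response in opr3 (vertical axis, log2 of wounded over control) against that in wt (horizontal axis) for 14612 probe sets in grey, with the 8 genes in red; the dashed line marks equal responses. The 8 genes lie above the line, AT2G43620 and CHI to the right of zero and the other 6 to the left.

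Ranked by that difference among named probe sets that passed the filter, AT5G55450 came second, AT2G43620 at 4 and AT4G00700 at 5. AT5G03350 and AT1G13470 stood at 7 and 8, CYP71B23 and AT1G72060 at 11 and 12, and CHI at 21. Above CHI stood 20 named probe sets, made up of the other 7 genes, 7 plastid-encoded genes and 6 further nuclear genes. Those 6, named here after their values were seen, were AT4G01290 (2.12), AT1G01320 (2.08), AT1G66880 (2.04), AT2G24160 (2.04), AT5G55050 (1.99) and AT5G12420 (1.96), against 1.95 for CHI. The set is thus a choice among the nuclear genes with the largest differences and not all of them.

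Before wounding all 8 genes were lower in opr3 than in wt, as were 58.8% of all probe sets. In 6 of them the gap was at least 2-fold, as in 0.575% of all probe sets. AT5G03350 was 2.88-fold, CHI 2.84-fold, AT5G55450 2.8-fold, AT1G13470 2.74-fold, AT2G43620 2.67-fold and AT4G00700 about 2.33-fold lower. These 6 log2 differences ran from -1.22 to -1.53, a range that the limit itself narrows, and over all 8 genes from -0.60 to -1.53. The control values also enter the responses by which the genes had been picked. In wt the responses to wounding of the 6 genes ran from -1.09 to 1.19. CYP71B23 (-0.76) and AT1G72060 (-0.60) were lower by less than 2-fold. After wounding all 8 were higher in opr3 than in wt (50.5% of all probe sets), 7 of them by at least 2-fold (1.33%), from 4.21-fold for AT5G55450 down to 2.34-fold for AT5G03350, with CHI under the limit.

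**Figure D3:**
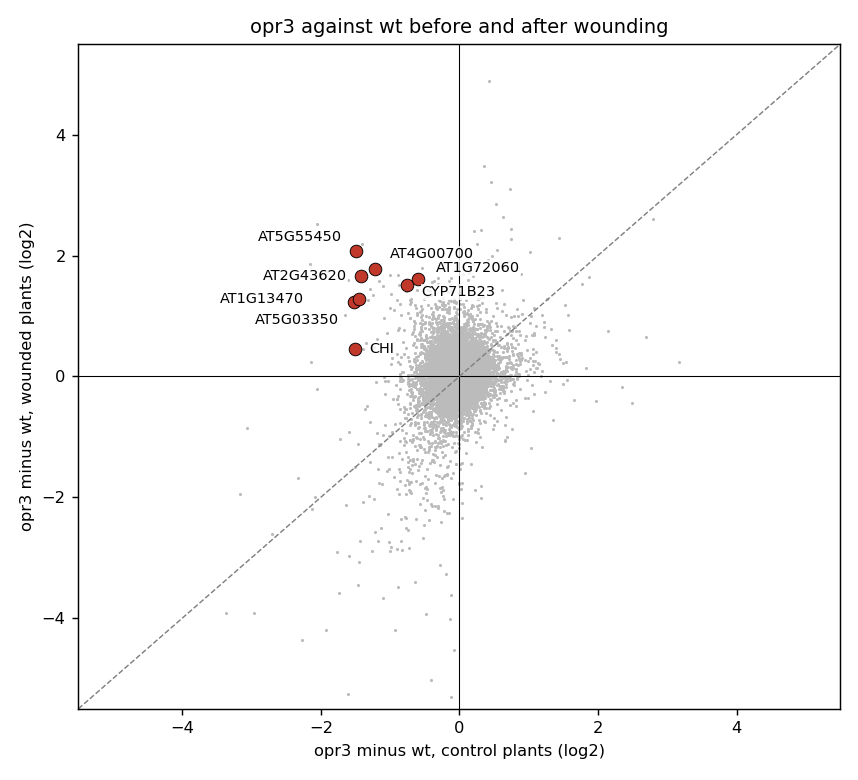
The log2 difference opr3 minus wt in wounded plants (vertical axis) against that in control plants (horizontal axis) for 14612 probe sets in grey, with the 8 genes in red; the dashed line marks equal differences. All 8 genes lie left of zero and above zero, CHI lowest at 0.44 after wounding.

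Being at least 2-fold lower in opr3 controls and at least 2-fold higher in wounded opr3, both against wt, was found in 19 probe sets, 0.13% of those used. Of these, 5 had a named gene, and all 5 were genes of the set: AT5G55450, AT2G43620, AT4G00700, AT5G03350 and AT1G13470. A response of at least 2-fold upward in opr3 and downward in wt was found in 7 probe sets (0.0479%), of which 3 were named, and these were AT5G55450, CYP71B23 and AT1G72060. The other 14 and 4 probe sets had no single named gene in the annotation used, so what they measure was not analysed here. Because the genes had been picked from these same arrays, nothing is read from their share of the named ones. The limit also decides which genes are counted. For opr3 minus wt, AT2G24160 had -0.94 in controls and 1.10 after wounding, and AT1G66880 had -0.85 and 1.19.

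Control wt lay between control opr3 and wounded opr3 for all 8 genes. By that order alone, wounded opr3 was closer to control wt than to its own control. The share of all probe sets with that order was not counted, so nothing is read from it. Set against control wt, wounded opr3 was 7.23-fold higher for AT2G43620, 3.11-fold for AT4G00700 and 2.39-fold for CHI. These 3 of the 8 passed the limit, as did 3.35% of all probe sets. AT5G03350 (2.00-fold, log2 0.997), AT5G55450 (1.97-fold) and AT1G13470 (1.81-fold) lay just under it, and AT1G72060 (1.41-fold) and CYP71B23 (1.40-fold) were further below. The median of the 8 was 0.99 on the log2 scale, against 2.5 when wounded opr3 is set against its own control. As a share of the log2 difference between the responses, the gap between the control arrays made up 27.2% for AT1G72060, 33.2% for CYP71B23, 40.6% for AT4G00700, 41.8% for AT5G55450, 46% for AT2G43620, 53.3% for AT1G13470 and 55.5% for AT5G03350.

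Wounded opr3 was the highest of the 4 arrays for all 8 genes and for 24.4% of all probe sets, and control opr3 the lowest for 6 genes and for 28.5% of all probe sets. Ordering the arrays from high to low gave 3 patterns. AT5G55450, AT4G00700, AT5G03350 and AT1G13470 ran wounded opr3, control wt, wounded wt, control opr3, an order shown by 2.91% of all probe sets used. The chitinase genes ran wounded opr3, wounded wt, control wt, control opr3 (9.22%). CYP71B23 and AT1G72060 ran wounded opr3, control wt, control opr3, wounded wt (3.61%). The orders of AT4G00700 and AT5G03350 rest on wt gaps of 0.14 and 0.23. The difference between the control arrays had a spread, a robust SD, of 0.183 over all 22746 plant probe sets, before the filter. That spread takes in differences between the lines and is not a replicate spread, so it does not tell which wt gaps are secure.

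Families of the 8 genes were then read for other members. Among chitinases and glucanases, 20 genes were listed, 11 had a named probe set and 5 passed, 2 of them CHI and AT2G43620. AT4G01700, a chitinase gene, was at 7.39 in wounded opr3 against 5.22 in control opr3, and at 6.19 in wounded wt against 5.21 in control wt. Its control values were 1.01-fold apart between the lines, against 2.84-fold for CHI, and it was 4.50-fold higher after wounding in opr3 and 1.97-fold in wt. AT3G47540 was 2.07-fold higher in opr3 and 1.14-fold in wt. AT1G02360 was lower after wounding in both lines, by less than 2-fold, and its level in opr3 controls was 2.02-fold that in wt controls. Their median difference of responses was 0.87, against 0.03 over all probe sets.

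CHI and AT2G43620 lie in one run of chitinase genes on chromosome 2, with AT2G43580, AT2G43590, AT2G43600 and AT2G43610 between them. All 4 genes between them stayed under the filter level on every array, from 3.53 to 4.52, so the response was seen at the ends of the run and not at the named genes inside it at this sensitivity. On the far side of CHI, past AT2G43560, lie small genes of the trypsin inhibitor family, with AT2G43540 among them. AT2G43560 and AT2G43540 differed between the responses by -0.325 and -0.213. AT2G43550 had 6.52 in wounded opr3 against 5.19 in control opr3, and 10.18 in wounded wt against 6.30 in control wt. AT2G43530 had 8.18 against 7.64 in opr3, wounded and control, and 10.53 against 8.49 in wt. AT2G43550 and AT2G43530 were thus highest in wounded wt, where CHI and AT2G43620 were highest in wounded opr3. Their differences of responses were -2.56 for AT2G43550 and -1.51 for AT2G43530. AT2G43535 also had a smaller response in opr3 (-1.37), with its wounded opr3 value, 4.53, under the filter level.

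**Figure D4:**
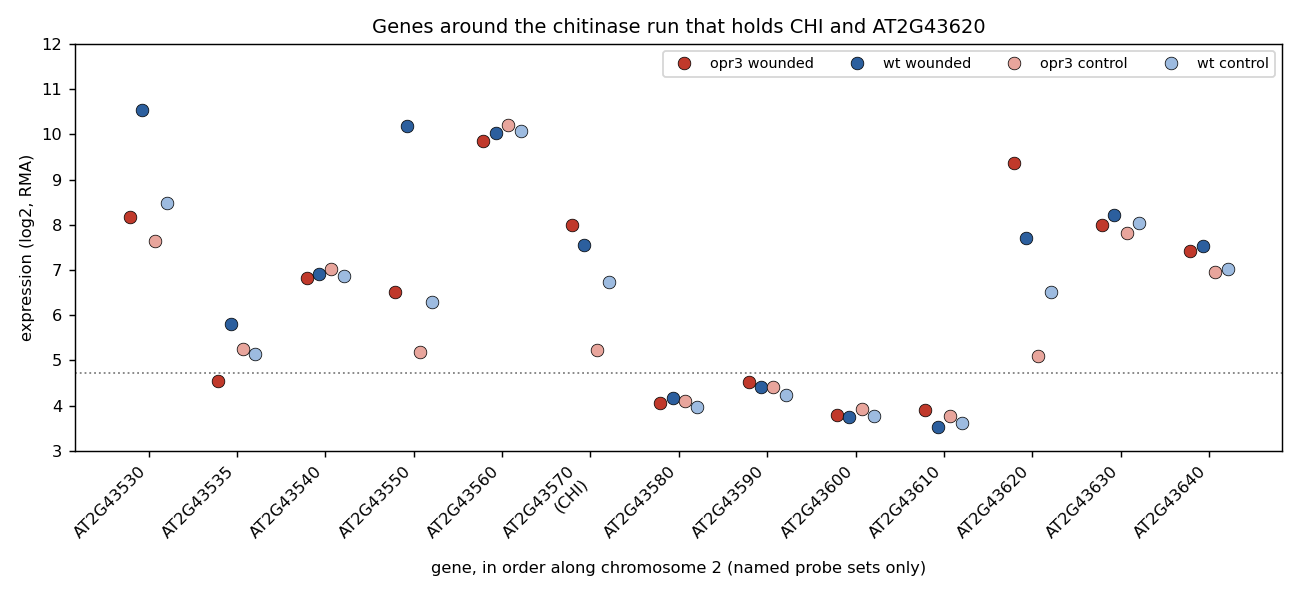
Log2 expression on the 4 arrays of genes with a named probe set from AT2G43530 to AT2G43640, in their order along chromosome 2 (not to scale); the dotted line is the filter level. CHI and AT2G43620 are highest in wounded opr3, AT2G43530 and AT2G43550 in wounded wt, and the 4 chitinase genes between CHI and AT2G43620 lie under the dotted line.

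Neighbours of the other genes were read where they had a named probe set. Of the 80 places given by the 5 genes on either side of each of the 8, 36 named probe sets other than the 8 genes were found and 22 passed the filter. Of these, 0 had a response at least 2-fold larger in opr3, where 2.07% of all probe sets did, too small a share for the 0 to say anything particular about the neighbours. A response at least 2-fold smaller was seen in 3 (1.32% of all probe sets), which were the inhibitor genes near CHI. Most neighbours were not read. Of 10 each, 1 passed for AT5G55450 and for AT4G00700, 2 for CYP71B23 and 3 for AT1G13470. CYP71B23 sits in a run of CYP71B genes, where CYP71B22 differed by -0.04 between the responses and CYP71B24 by 0.81, the highest value among the 22. CYP71B24 lay under the filter level on 3 arrays. For the other genes of the set the neighbours ran from -0.64 to 0.35.

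Over the CYP71B subfamily as a whole, 19 genes were named and 11 passed, CYP71B23 among them. Of the other 10, 0 were at least 2-fold higher after wounding in opr3 (4.85% of all probe sets) or in wt (3.94%), near the share over all probe sets. Their median difference of responses was -0.11. CYP71B6 (0.29), CYP71B34 (-0.14), CYP71B28 (-0.07), CYP71B26 (-0.30), CYP71B5 (0.29) and CYP71B29 (-0.28) had responses that differed little between the lines. CYP71B5 was 1.92-fold lower after wounding in opr3 and 2.36-fold lower in wt, where CYP71B23 went in opposite directions. In the MCTP family, of 16 listed genes 15 were named and 7 passed, and the 6 other than AT4G00700 had a median of 0.08, with AT1G51570 at 0.03, AT1G22610 at -0.21, AT3G57880 at 0.14, QKY, which acts in organ shape, at 0.20, AT3G03680 at 0.36 and AT1G04150 at -0.70. Past the limit lay 0 of the 6 in each comparison, again near the shares over all probe sets (4.85% higher in the opr3 response, 2.07% in the difference of responses).

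Lectin genes fell on both sides. AT5G18470, of the curculin-like lectin family, had 6.54 in wounded opr3 against 4.54 in control opr3, and 5.21 in wounded wt against 5 in control wt, so it was about 4.01-fold higher in opr3 and 1.16-fold in wt. The jacalin-related lectin gene JAL34 had 5.41 in wounded opr3 against 5.55 in control opr3, and 7.67 in wounded wt against 5.70 in control wt. JAL23 differed in the same direction, with a difference of responses of about -1.84. Unlike JAL34 it was higher after wounding in both lines, about 4.13-fold in opr3 and 14.8-fold in wt. In opr3 controls JAL23 was about 3.33-fold lower than in wt controls, with a value of 4.03, under the filter level. AT3G16530, a legume lectin gene like AT5G03350, had a difference of responses of 0.13. Its level in opr3 controls was 1.87-fold that in wt controls, where AT5G03350 was 2.88-fold lower.

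Of the small protease inhibitor genes other than AT1G72060, 4 passed the filter, and 3 of them were those near CHI. AT2G38870, of the potato inhibitor type, had 9.13 in wounded opr3 against 7.01 in control opr3, and 8.93 in wounded wt against 8 in control wt. It was 4.34-fold higher in opr3 and 1.90-fold in wt, and like CHI it ended at nearly the same level in both lines, 1.15-fold apart, after a start 1.99-fold lower in opr3. In the lipid-transfer family only AT4G22490 passed beside AT5G55450, and it differed between the responses by -0.17. Of the DUF1262 family no gene but AT1G13470 passed.

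Few genes of the hormone branches could be read. Of 39 listed genes of salicylate signalling and systemic acquired resistance, 3 were named and 2 passed, and the widely used markers of that branch, such as PR1, had no named probe set here. GRX480, a glutaredoxin that binds TGA transcription factors, had 6.86 in wounded opr3 against 4.62 in control opr3, and 6.42 in wounded wt against 6.01 in control wt. It was about 4.73-fold higher in opr3 and 1.32-fold in wt, from a start about 2.62-fold lower in opr3 controls. SAG101, a partner of the immune regulators EDS1 and PAD4, was 1.40-fold higher after wounding in opr3 and 1.52-fold higher in wounded opr3 than in wounded wt. UGT76B1 stayed under the filter level on all arrays. Of 12 listed jasmonate and ethylene defence genes, 3 passed. The defensin genes PDF1.2b and PDF1.2 and the thionin gene THI2.1 were 2.10-fold, 2.07-fold and about 2.05-fold lower in wounded opr3 than in wounded wt, as were 1.66% of all probe sets. THI2.1 lay under the filter level on 3 arrays, with 4.15 in wounded opr3. PDF1.2b and PDF1.2 were already lower in opr3 controls, by log2 -0.78 and -0.71, and their wounding responses were small, at -0.20 and -0.40 in opr3 and 0.08 and -0.06 in wt.

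Across all 9 lists, 33 genes other than the 8 passed the filter. Of these 4 had a response at least 2-fold larger in opr3 (AT4G01700, GRX480, AT5G18470 and AT2G38870), beside 2.07% of all probe sets, and 6 a smaller one, beside 1.32%. Lower values in opr3 controls together with higher values in wounded opr3, by any amount, were seen in 8 of the 33, against 28.1% of all probe sets.

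Likeness to the set was measured as the Euclidean distance, over the 4 arrays, between a gene's log2 values less its own mean and the median profile of the 8 genes. That profile was 1.15 in wounded opr3, -0.19 in wounded wt, -1.24 in control opr3 and 0.22 in control wt. AT1G13470 (0.072) and AT5G03350 (0.182) lay nearest to it and AT2G43620 (1.75) farthest. Among other named probe sets the nearest were AT2G24160 (0.45), AT2G39210 (0.61), SAL2, a phosphatase gene (0.68), AT5G19875 (0.68), AT1G66880, a kinase gene (0.68), the ubiquitin ligase gene RING1 (0.70), GRX480 (0.72), the lectin gene AT5G18470 (0.72), AT1G10340, an ankyrin repeat gene (0.76), and the subtilase gene SBT3.5 (0.78). AT2G24160 lay nearer than AT4G00700 (0.511), and the other 9 lay farther than AT5G55450 (0.602). All 10 lay nearer than CHI (1.02), CYP71B23 (1.03), AT1G72060 (1.19) and AT2G43620. AT2G24160 had 6.95 in wounded opr3 against 5.12 in control opr3, and 5.85 in wounded wt against 6.06 in control wt. AT2G39210, a transporter family gene, had 9.85 in wounded opr3 against 7.80 in control opr3, and 8.67 in wounded wt against 8.44 in control wt. RING1 had 10.25 in wounded opr3 against 8.69 in control opr3, and 9.41 in wounded wt against 9.35 in control wt. All 10 were at least 2-fold higher after wounding in opr3 and within 2-fold in wt, which the choice by profile favours, and GRX480 alone was at least 2-fold lower in opr3 controls.

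**Figure D5:**
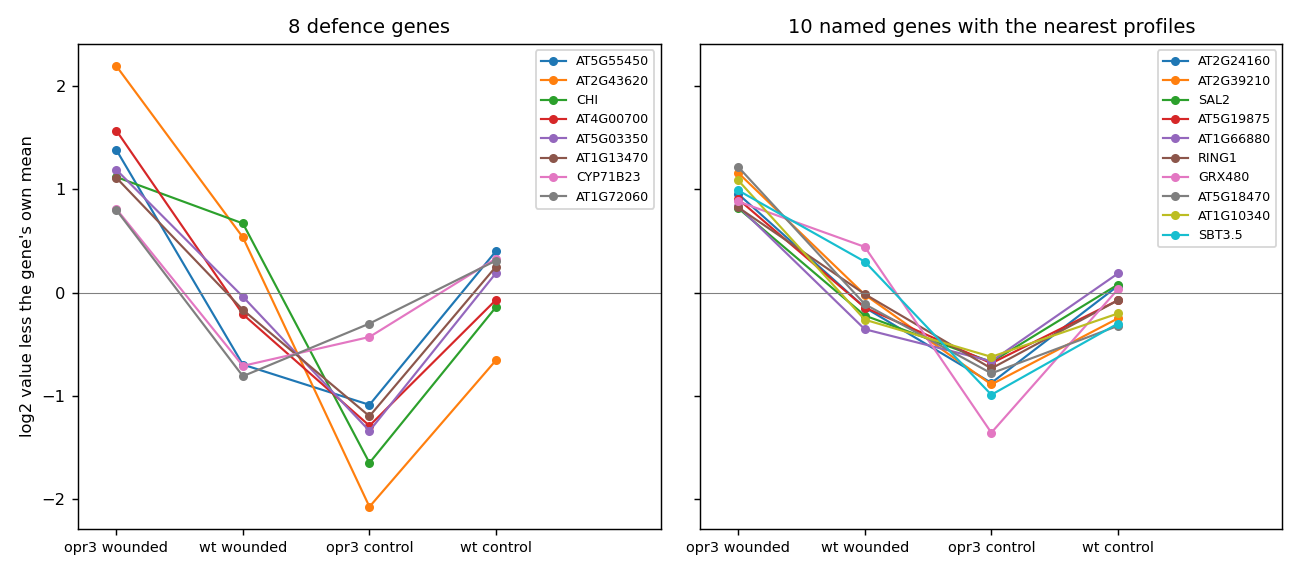
Log2 values less the gene's own mean (vertical axis) on the 4 arrays (horizontal axis) for the 8 genes (left) and the 10 named genes with the nearest profiles (right); each line is 1 gene and joins 1 array per group. The 10 genes have a smaller range than most of the set, with wounded opr3 the highest and control opr3 the lowest array for each.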

How the data were processed

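Per the submitters' processing notes, RMA and Partek were used, with no version named, and the authors deposited 1 log2 value for each probe set on each of 4 Affymetrix ATH1 arrays, 1 per group. Genome build and probe annotation: not given in the sources used here, so no coordinates are printed. Genes were named from the platform annotation, with symbols updated by gene ID from RefSeq's TAIR10.1 table (13436 of 13513 single-gene probe sets matched). The 8 genes and the gene lists were chosen with earlier results of these data known.

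Arrays were subtracted from each other on the log2 scale, and a difference of 1 was the limit. Probe sets whose highest value reached the 40th percentile of all values were used. With 1 array per group no test was possible, and the number of arrays limits the precision. Named genes were the 8, up to 6 others per list by highest mean, neighbours past the limit in the difference of responses, and the 10 nearest profiles. Lists use 1 probe set per gene, the highest mean. The list of CYP71 genes was read as CYP71B, since the prefix also took a cyclophilin and CYP718. Sequence comparisons planned for promoters and proteins were not made here. Alternatives were median centring, quantile and cyclic loess normalization (limma 3.58.1 in R 4.3.3), no filter, a filter at the 60th percentile, and 1.5-fold and 3-fold limits. The steps were tested on simulated data. Calculations used Python 3.11.15 with numpy 2.4.6 and pandas 2.3.3.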

Additional observations from a re-analysis of the deposited data

Results flagged for a closer look

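In 6 genes the wounding response pointed upward in opr3 and downward in wt, each line being 1 pair of arrays. By any amount, 56.2% of all probe sets were lower after wounding in wt. The share that was also higher in opr3 was not counted, so nothing is read from the 6. The difference of the responses was 3.56 for AT5G55450, 3.0 for AT4G00700, 2.76 for AT5G03350, 2.73 for AT1G13470, 2.27 for CYP71B23 and 2.22 for AT1G72060 on the log2 scale. In all 8 genes, with AT2G43620 (3.08) and CHI (1.95) in addition, opr3 lay below wt in control plants and above it after wounding. By any amount, 28.1% of all probe sets did so. None of these differences was tested, since each combines 4 single arrays, and the genes had been picked for them. For AT4G00700 and AT5G03350 the wt decrease was small, at -0.14 and -0.23.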

How the results depend on the processing

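No paired analysis was possible because each group has 1 array. Centring, quantile and cyclic loess normalization, and quantile and cyclic loess normalization without the wt wounded array for the comparisons that do not use it (added after seeing the data), gave 152 recomputed values of single genes. None changed sign, the largest shift was 0.077 (log2), and 1, the wt response of CYP71B23, crossed the limit. The medians over the 8 genes moved by less than the spread between the control arrays under these normalizations. The deposited values had already been equalised by RMA, with array medians from 5.36 to 5.42, which left such steps little to change. Neither filter setting could move the medians, since all 8 genes passed under both. At a 1.5-fold limit 2 of the 8 genes were higher after wounding in wt. At a 3-fold limit 0 were higher and 0 lower in wt, 4 were higher in wounded opr3 than in wounded wt, and 0 were lower in opr3 controls. Over the whole table, probe sets past the 1.5-fold limit numbered 1649 higher and 1124 lower for wounding in opr3, 1216 and 1243 for wounding in wt, 717 and 550 for wounded opr3 against wounded wt, 243 and 332 for control opr3 against control wt, and 1114 and 622 for the difference of responses. Past the 3-fold limit the numbers were 279 and 36, 251 and 43, 45 and 122, 11 and 25, and 92 and 75 in the same order. The limit itself makes these counts fall. RMA compresses values near background, which makes folds there too small.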
